A study of Bos taurus with 2 samples.

Results

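The clustered protocadherin genes lie side by side on cattle chromosome 7 in an alpha, a beta and a gamma group. Members were the genes whose symbol is protocadherin alpha, beta or gamma in the RefSeq annotation of the ARS-UCD2.0 assembly, together with every 1 kb window from the first to the last of them. The rule gave 7 named genes of 36056 in the annotation, namely PCDHA13, PCDHB1, PCDHB11, PCDHGA2, PCDHGB4, PCDHGA8 and PCDHGC3, and 704 windows of 2628394. CpG methylation was measured by whole genome bisulfite sequencing (WGBS) in 2 libraries of bone DNA, labelled Bone_1 and Bone_2, both from female Holstein cattle with no treatment named. The labels do not say whether they came from separate animals, and every SD below is the spread between both libraries only, which may be technical. Age, the bone sampled and its content of marrow are not given in the sources used here.

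Clustered protocadherins are cell adhesion proteins of the cadherin family, best known from neurons, where each cell uses its own combination of them and the proteins on neighbouring membranes bind like to like. Each variable exon has a promoter of its own, and in the alpha and gamma groups it is spliced to constant exons shared by the group, whereas beta genes are single exons. Promoter choice involves the boundary protein CTCF and cohesin, and methylation of a variable promoter and exon goes with its silence. The C-type members at the end of the alpha and gamma groups are used more uniformly by cells than the other members.

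For each CpG site, the methylated and unmethylated calls of both strands were summed, and a methylation level is the methylated calls over all calls of a promoter, window or segment, in percent. Over chromosomes 1 to 29 and X, Bone_1 had 17.0 calls per CpG site at a level of 72.3% and Bone_2 had 15.0 calls per site at 58.7%. Windows entered where both samples had at least 20 calls, which 521 of the 704 windows of the protocadherins met (74.0%, against 83.3% of all windows). Of the other 183, 14 held no CpG site, and 169 fell short in Bone_1 against 10 in Bone_2. Windows with at least 40 CpG sites are called CpG-dense, and 86 passing windows of the protocadherins were. In these windows Bone_1 had 24.8 calls per site and Bone_2 had 6.73, close to the 22.2 and 6.94 of other CpG-dense autosomal windows. All intervals are 95% Wilson intervals, which cover counting error only.

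The protocadherin genes were less methylated than the genome in both samples. Their passing windows held 11255 CpG sites, with 46.7% (46.5 to 46.9%) of 236738 calls methylated in Bone_1 and 38.2% (38.0 to 38.5%) of 123896 in Bone_2, or 42.5% ± 5.99 (SD, n = 2). The alpha group, as spanned by the gene named PCDHA13, was at 45.1% in Bone_1 and 37.5% in Bone_2 over 3704 sites. The beta group, from PCDHB1 to PCDHB11, was at 49.5% and 36.6% over 2975 sites. The gamma group, from PCDHGA2 to the common end of PCDHGB4, PCDHGA8 and PCDHGC3, was at 45.8% and 37.9% over 3757 sites. The 3 groups thus lay close together, with beta the highest in Bone_1 and the lowest in Bone_2. These levels weight sequence by its calls, which the libraries spread differently. Bone_1 had 24.8 calls per site in CpG-dense windows and 13.0 in those with 1 to 9 sites, Bone_2 6.73 and 20.7. By window medians the order of the groups was the same in both samples. Beta was then the highest in CpG-dense windows and the lowest in windows with under 20 sites. The stretch between the alpha and beta groups, which held no CpG-dense window, was higher, at 66.6% in Bone_1 and 47.7% in Bone_2. Among windows with under 20 CpG sites, the medians of this stretch were 63.8% and 49.2% over 43 windows. They lay below those of alpha (70.4% and 51.5%) and gamma (79.0% and 58.8%) and above those of beta (51.8% and 36.1%). The stretch between the beta and gamma groups was at 48.9% and 42.6%, and 5 of its 6 CpG-dense windows lay between 20 and 60% in both samples.

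**Figure D1:**
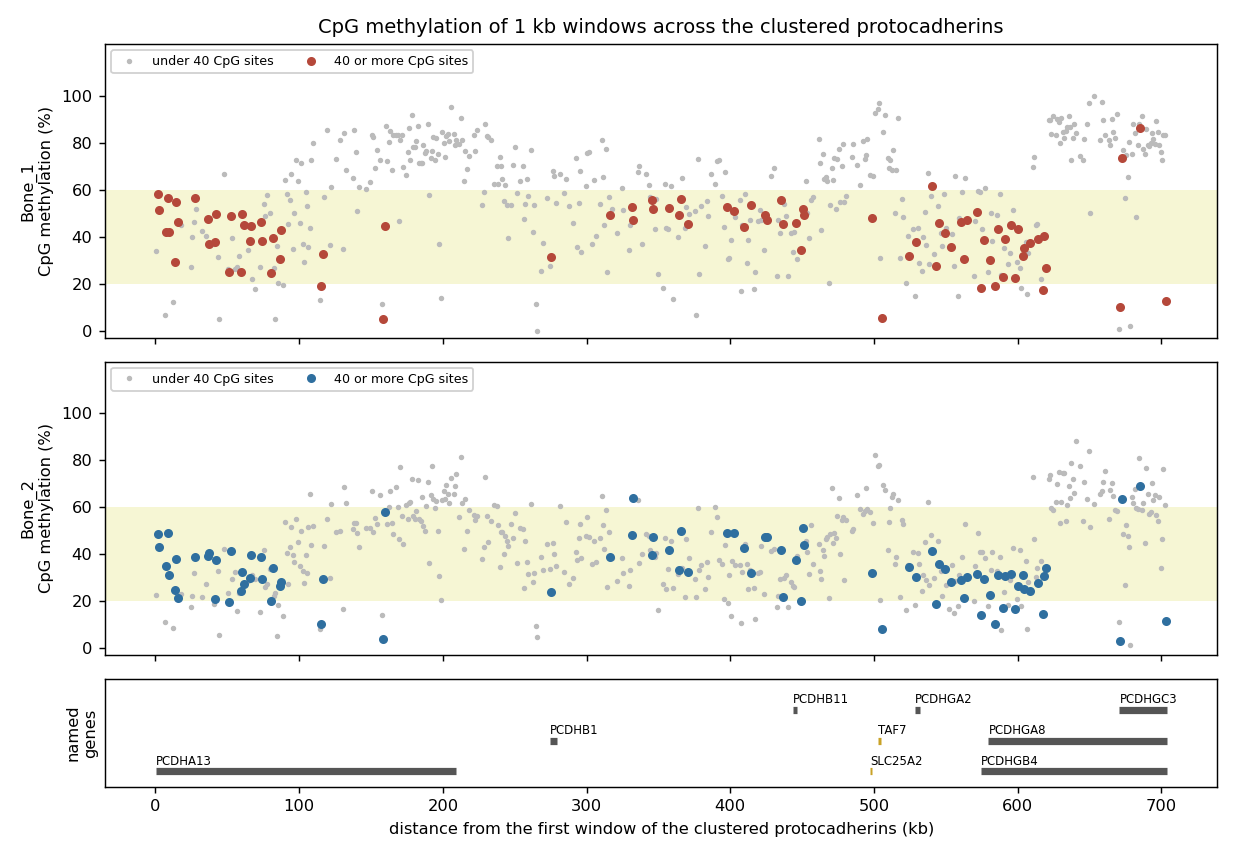
Methylation level (%, vertical axes) of each passing 1 kb window against its distance in kb from the first window of the protocadherins, Bone_1 above and Bone_2 in the middle, with the named genes as bars at the bottom. Coloured points are CpG-dense windows, grey points the others, and the shaded band runs from 20 to 60%; in 70 of the 86 CpG-dense windows both samples lay within it.

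The sequence richest in CpG sites, which is mostly either low or high in the genome, was partly methylated here. Of the 86 CpG-dense windows, 70 (81.4%) lay at 20 to 60% in both samples, called intermediate here, against 7.65% of all 58108 CpG-dense windows of the genome. This range was not planned and was chosen with the data seen, and all counts of intermediate windows below rest on it. Other autosomal CpG-dense windows were mostly low or high, with 40.3% under 20% and 50.9% over 60% in Bone_1, and 40.1% and 40.4% in Bone_2. Among the protocadherin windows, 8 (9.30%) were under 20% in Bone_1 and 12 (14.0%) in Bone_2, against 39.7% and 39.7% genome-wide. Over 60% were 3 windows in each sample. The median CpG-dense protocadherin window was at 43.7% in Bone_1 (quartiles 32.0 to 49.3%) and 31.6% in Bone_2 (24.5 to 40.3%). No test over windows was made, since neighbouring windows of 1 library are not replicates.

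The difference from the rest of the genome changed direction with CpG density. In windows with 60 or more CpG sites, the protocadherin median was 47.5% in Bone_1 and 37.8% in Bone_2 (46 windows), against 3.99% and 4.69% in the other autosomal windows of that class. In windows with 20 to 39 sites the order was the opposite, with protocadherin medians of 41.4% and 31.3% (78 windows) against 82.2% and 63.2%. In the poorest class, with 1 to 9 sites, the medians were 64.4% and 47.8% (253 windows) against 77.9% and 59.5%. The 60-site class therefore sat above its autosomal counterpart and the sparser classes below theirs, in both samples.

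In the 500 kb on either side, intermediate windows were few. There, 3 of 35 CpG-dense windows (8.57%) were intermediate in both samples, and 24 and 27 of the 35 were under 20%. Flanking windows with 60 or more CpG sites had medians of 1.85% in Bone_1 and 3.90% in Bone_2. On the X chromosome, of which a female cell methylates the CpG islands of the inactive copy, 523 of 1226 CpG-dense windows (42.7%) were intermediate in both samples.

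**Figure D2:**
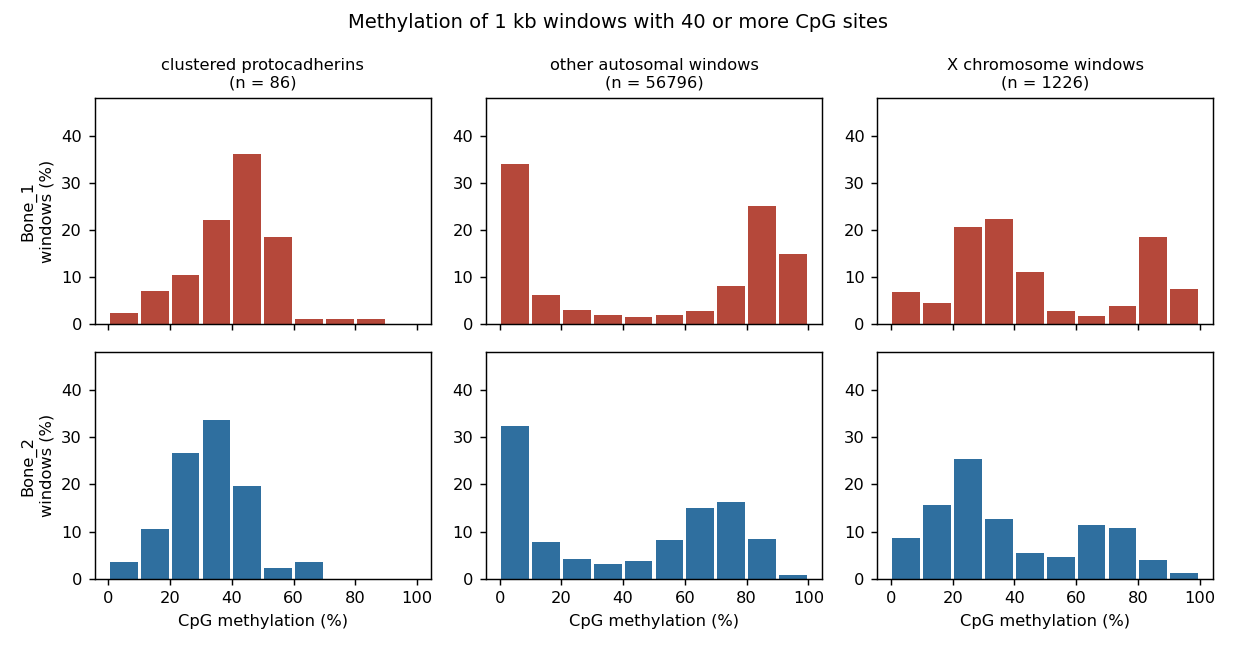
Share of CpG-dense 1 kb windows (%, vertical axes) in each 10-point class of methylation level (%, horizontal axes), for the protocadherins, the other autosomal windows and the X chromosome, Bone_1 above and Bone_2 below. The protocadherin windows form a single hump with medians of 43.7% and 31.6%, whereas the other autosomal windows have a low peak under 10% and a high one, at 80 to 100% in Bone_1 and 60 to 80% in Bone_2.

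Few stretches of the genome held as many intermediate windows. In bins of 100 kb, ranked by their number of intermediate CpG-dense windows over 11551 bins with any CpG-dense window, the first and second were protocadherin bins. The alpha bin chr7:51900001-52000000 held 23 intermediate windows of 24, and the gamma bin chr7:52400001-52500000 held 17 of 24. The bin chr7:52300001-52400000 followed at rank 5 with 11 of 11, of which 7 lay in the beta group and 4 in the stretch after it, and the beta bin chr7:52200001-52300000 at rank 7 with 10 of 11. The highest number in any other bin was 14, among 74 CpG-dense windows on chromosome 22. Of 1370 bins with at least 10 CpG-dense windows, 10 had at least 50% of them intermediate, of which 4 were protocadherin bins, 3 lay on other autosomes and 3 on X. The fifth protocadherin bin of that kind, chr7:52500001-52600000 in the gamma group, had 4 of 10 and ranked 112.

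**Figure D3:**
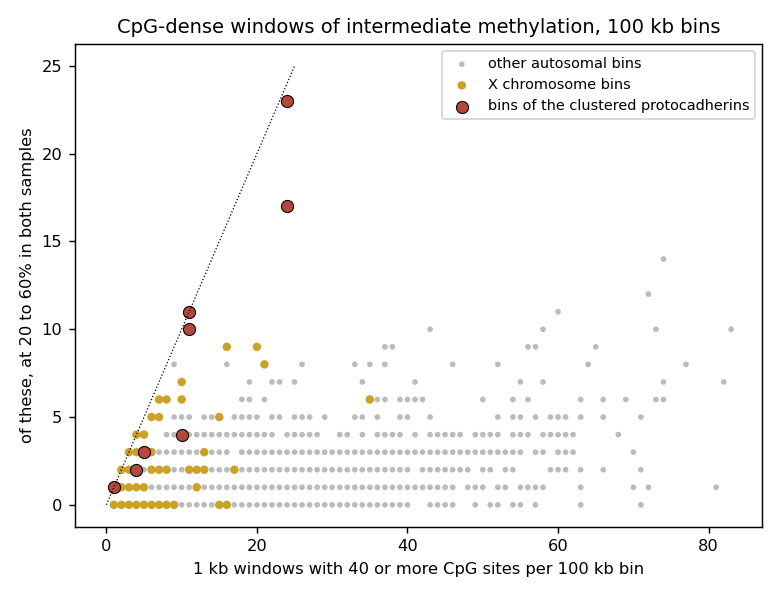
Number of CpG-dense 1 kb windows at 20 to 60% in both samples (vertical axis) against the number of all CpG-dense windows (horizontal axis) in each 100 kb bin of the genome; on the dotted line every window is intermediate. The protocadherin bins (red) with 23 of 24, 17 of 24, 11 of 11 and 10 of 11 windows lie above the other autosomal bins (grey) with as many CpG-dense windows, and the bin with 4 of 10 lies among them.

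Intermediate levels of these windows were also intermediate at single sites. Of the 5247 CpG sites in the 70 intermediate protocadherin windows, 981 were read at least 10 times in both samples. They are a part selected by depth, since Bone_2 had few calls per site there. Of these, 77.3% lay at 20 to 80% in Bone_1 and 66.3% in Bone_2, while 8.36% and 18.6% were at or under 10% and 1.22% and 0.204% at or over 90%. Highly methylated sites were thus few. Intermediate windows elsewhere on the autosomes had 52.8% and 64.9% of 36691 sites at 20 to 80%. By this share they were more mixed in Bone_1 and near the protocadherins in Bone_2. Sites at or over 90% were more frequent in both samples, at 11.6% and 3.80%. The SD between sites was 21.4 points in Bone_1 and 19.3 in Bone_2 for the protocadherins, against 31.8 and 27.5 for the other autosomal windows. Intermediate X-linked windows had SDs of 20.2 and 19.2 points over 5164 sites. At 10 calls a site's own counting error is part of each SD, and whether single reads were mixed or wholly methylated cannot be read from summed counts.

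In the alpha group, 27 of 30 CpG-dense windows were intermediate in both samples. The first window after the start of PCDHA13, chr7:51896001-51897000 with 67 CpG sites, was at 58.0% (55.8 to 60.2%) of 2003 calls in Bone_1 and 48.4% (44.3 to 52.6%) of 545 in Bone_2. The window with the most CpG sites of all, chr7:51982001-51983000 with 138, was at 42.6% and 28.1%. Levels fell along the group: over the 17 alpha windows with at least 60 CpG sites, Spearman's rho between position and level was -0.85 in Bone_1 and -0.73 in Bone_2. With 40 sites as the minimum it was -0.53 and -0.37 over 30 windows. These windows share their libraries and differ in CpG content and calls, so the values are a description. The gamma windows with at least 60 sites fell along their group as well, with rho of -0.67 and -0.76 over 10 windows, and of -0.21 and -0.11 over 31 windows with at least 40.

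The least methylated CpG-dense sequence of the alpha group lay beyond its main run of CpG-dense windows. The window chr7:52010001-52011000, with 89 sites, was at 18.8% in Bone_1 and 10.5% in Bone_2. At chr7:52053001-52054000, with 91 sites, the level was 5.09% (4.33 to 5.99%) of 2710 calls in Bone_1 and 3.81% (2.59 to 5.57%) of 656 in Bone_2. The adjoining window chr7:52054001-52055000, with 52 sites, was at 44.4% in Bone_1 and 58.1% in Bone_2, so the low level ended within 1 kb. Both windows lie inside the gene named PCDHA13, and the annotation table used gives no exons with which to place them further.

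Of the 3 groups, beta had the narrowest range over its CpG-dense windows. Its 19 CpG-dense windows ranged from 31.5 to 55.9% in Bone_1 and from 21.6 to 63.8% in Bone_2, none was under 20% in either sample, and 18 were intermediate in both. Over the 16 windows with at least 60 sites, rho with position was -0.19 and -0.17, and their levels lay between 44.1 and 55.9% in Bone_1 and between 32.0 and 63.8% in Bone_2. The window that was not intermediate in both was chr7:52227001-52228000, with 69 sites, at 47.2% (42.7 to 51.7%) of 464 calls in Bone_1 and 63.8% (56.6 to 70.4%) of 185 in Bone_2. Sequence with under 20 CpG sites per window in the beta group had medians of 51.8% and 36.1% over 75 windows, near those of its CpG-dense windows (49.3% and 41.8%). In the alpha and gamma groups the sparse windows were instead higher than the CpG-dense ones, with medians of 70.4% and 51.5% (alpha, 106 windows) and 79.0% and 58.8% (gamma, 81 windows).

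Gamma had the widest range. Of its 31 CpG-dense windows, 20 were intermediate in both samples, 5 were under 20% in Bone_1 and 8 in Bone_2, and the range ran from 10.02 to 86.4% and from 2.93 to 69.0%. Both windows above 60% in both samples, chr7:52567001-52568000 at 73.4% and 63.5% and chr7:52580001-52581000 at 86.4% and 69.0%, lay inside PCDHGC3. The lowest, chr7:52566001-52567000 with 71 sites, lay there too, at 10.02% (8.79 to 11.4%) of 2026 calls and 2.93% (1.86 to 4.59%) of 614. A further low window, chr7:52598001-52599000 at 12.6% and 11.4%, closed the group. The 4 CpG-dense windows inside PCDHGC3 were thus under 20% or over 60% in both samples, and none was intermediate. PCDHGB4 and PCDHGA8 as annotated overlap these windows as well.

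Promoters were taken from 1000 bp before to 500 bp after the gene start, the interval the study used. For the 7 members the start was the lower coordinate, since the table gives no strand, the 3 longest gamma genes share their higher end, and the genes of these groups are known to be read in 1 direction. For other genes it was the end with more CpG sites. The median member promoter was at 25.7% in Bone_1 and 21.5% in Bone_2, and 4 of 7 were intermediate in both samples, against 10.7% of all 20896 promoters with enough calls. The other promoters had medians of 12.8% and 17.1%. CpG-rich gene ends are mostly low, so the choice of ends bears on the medians and single values of the other genes. Members and other genes were thus placed by unlike rules. The rule of the other genes would have put PCDHGB4, PCDHGA8 and PCDHGC3 at their shared higher end. That end held 87 CpG sites, against 56, 34 and 59 at their lower ends.

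PCDHA13, the single named alpha gene, had 35.2% (31.3 to 39.3%) of 545 calls methylated in Bone_1 and 26.8% (22.1 to 32.0%) of 306 in Bone_2, or 31.0% ± 5.96 (SD, n = 2), over 20 sites. The gene as annotated spans the whole alpha group. Its start is thus the lower end of the group and was not shown to be the promoter of a particular alpha exon. It is counted with the variable members below. The difference of 8.43 points passed Fisher's exact test between the 2 libraries (Benjamini-Hochberg adjusted p = 0.0199), while the exact test against the genome-wide odds ratio of the libraries did not detect a departure from their overall gap (adjusted p = 0.265).

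Of the beta genes, PCDHB1 had the lower promoter, at 23.8% (19.6 to 28.5%) of 345 calls in Bone_1 and 28.3% (24.1 to 33.1%) of 381 in Bone_2, or 26.1% ± 3.24 (SD, n = 2). PCDHB11 had 42.9% (36.2 to 49.9%) of 198 calls in Bone_1 and, by coincidence with the same counts as PCDHB1, 28.3% of 381 in Bone_2, or 35.6% ± 10.3. The intervals of these genes separate in Bone_1 and coincide in Bone_2, so their order rests on Bone_1. PCDHB11 had the largest difference between samples of the named members, 14.6 points (Fisher's exact test, adjusted p = 0.00119).

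The gamma genes PCDHGA2, PCDHGB4 and PCDHGA8, which are variable members of the A and B subtypes, had promoters between 16.7 and 29.3%. PCDHGA2 was at 25.7% (23.1 to 28.4%) of 1021 calls and 21.5% (17.9 to 25.5%) of 438. PCDHGB4 was at 19.2% (17.1 to 21.6%) of 1177 calls and 16.7% (14.1 to 19.6%) of 702, the lowest values among the variable members. PCDHGA8 was at 29.3% (25.8 to 33.2%) of 569 calls and 18.8% (15.9 to 22.2%) of 600. In Bone_2 the intervals of each pair of these genes overlapped, so their order was not resolved there.

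PCDHGC3, the C-type member among the named genes, was lower than the other 6 in both samples over this promoter interval. Its Wilson intervals did not overlap theirs. Its promoter held 59 CpG sites, with 0.707% (0.405 to 1.23%) of 1697 calls methylated in Bone_1 and 6.76% (5.11 to 8.91%) of 680 in Bone_2, or 3.74% ± 4.28 (SD, n = 2). The higher value in Bone_2 (Fisher's exact test, adjusted p = 7.28e-15) came from the outer part of the promoter, from 1000 to 500 bp before the start, where Bone_2 had 104 calls and Bone_1 had 5. Within 500 bp of the start, 9 of 1692 calls were methylated in Bone_1 (0.532%) and 2 of 576 in Bone_2 (0.347%). Between 1500 and 2500 bp after the start the level was 77.4% in Bone_1 and 58.8% in Bone_2, 76.9 and 58.4 points above the level around the start.

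**Figure D4:**
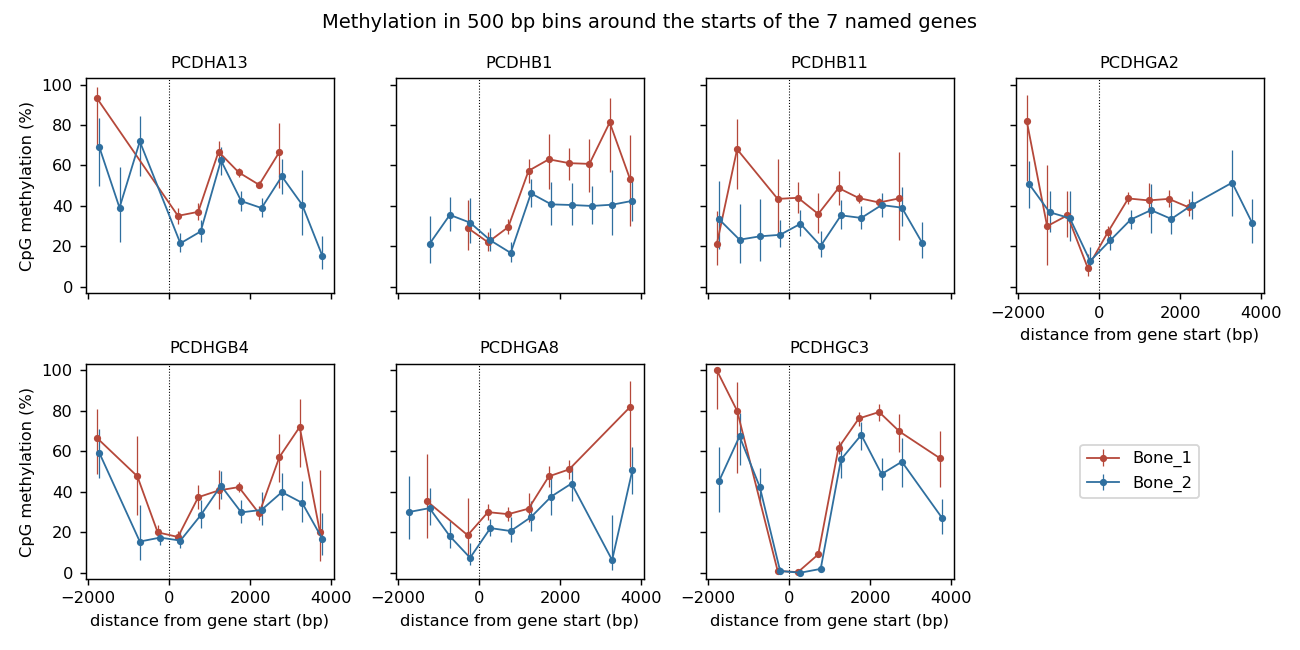
Methylation level (%, vertical axes) in 500 bp bins from 2000 bp before to 4000 bp after the start of each named gene (horizontal axes), Bone_1 in red and Bone_2 in blue, with 95% Wilson intervals; bins with under 10 calls in a sample are left out. PCDHGC3 falls to near 0 on both sides of its start, whereas the other genes lie between 15.9 and 44.0% in the first 500 bp after theirs. In the 500 bp before, those with calls ranged from 9.48% (PCDHGA2) to 43.5% (PCDHB11) in Bone_1. In Bone_2 they ranged from 7.37% (PCDHGA8) to 31.7% (PCDHB1).

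The variable members showed a shallower form of this profile. Within 500 bp of the start, the level was lower than between 1500 and 2500 bp downstream in 5 of the 6 variable members in Bone_1 and 6 of 6 in Bone_2, with a median difference of 18.6 and 16.6 points. PCDHGB4 had 18.7% and 16.7% near its start and 38.3% and 30.2% downstream. PCDHB1 had 23.1% and 25.1% near its start and 61.6% and 40.6% downstream. The exception was PCDHB11 in Bone_1, with 44.0% near the start and 42.9% downstream. In the narrower interval from 250 bp before to 50 bp after the start, where 5 members had at least 20 calls, PCDHGA2 was at 5% (2.31 to 10.5%) of 120 calls and 2.97% (1.02 to 8.37%) of 101, and PCDHB1 was at 31.4% and 30.9%. PCDHGC3 had 0 of 189 methylated calls there in Bone_2, which allows a share of up to 1.59% by a limit of 3 calls (1.99% by the Wilson interval). That Wilson interval overlaps the one of PCDHGA2, so PCDHGC3 and PCDHGA2 were not separated there in Bone_2. The median of these 5 members over both samples was 9.10%, against 23.6% for the same 5 members in the longer interval. Within 500 bp on either side of the start, the median of all 7 members was 24.09%, as in the longer interval. The count of intermediate members depended on the interval. PCDHGA2, at 25% and 19.7% within 500 bp, was no longer intermediate in both samples. In the narrower interval PCDHB1 alone of the 5 members was.

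Between the first and the last named member, the table placed 20 other protein-coding genes, of which 18 carry no gene name there and could not be called protocadherins from it. Their promoters had medians of 43.7% in Bone_1 and 29.9% in Bone_2, and 13 of the 18 (72.2%) were intermediate in both samples, against 10.7% of all promoters. The end richer in CpG sites was the lower coordinate in 11 of them, of which 9 were intermediate (medians 37.3% and 27.0%), and the higher coordinate in 7, of which 4 were (46.3% and 36.0%). If the latter are read in the direction of the cluster, those values belong to their far ends. The lowest values were those of LOC132342109 in Bone_1, at 16.4% and 24.9%, and LOC112447438 in Bone_2, at 21.9% and 22.6%. The highest in both was LOC101902907 at 81.5% and 69.2%. LOC132342109 and LOC101902907 are among the 7. The 2 named genes differed. SLC25A2, a mitochondrial carrier of ornithine between the beta and gamma groups, was at 50.8% (48.9 to 52.6%) of 2792 calls and 39.9% (36.7 to 43.2%) of 855 over 102 CpG sites. TAF7, a subunit of the general transcription factor TFIID that lies beside it, was at 4.80% (3.84 to 5.98%) of 1543 calls and 8.45% (6.93 to 10.3%) of 1065 over 69 sites. TAF7, which most cells use, was thus low where most of the genes around it were intermediate. The nearest protein-coding gene on each side, LOC100847114 and LOC132345761, had promoters at 80% and 47.3%, and at 63.4% and 43.4%.

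Protocadherins outside the cluster, each with a promoter of its own, were mostly low, which is the common state of promoters. Of 12 listed genes 11 were matched, 8 of them (72.7%) under 20% in both samples, against 51.1% of all promoters, with medians of 5.62% and 3.996%. PCDH7 was at 0.582% and 0 of 508 calls, which allows a share of up to 0.591% by a limit of 3 calls (0.751% by the Wilson interval). PCDH1, on the same chromosome as the cluster, was at 0.629% and 0.707%. The other 3 were intermediate in both samples, namely the X-linked PCDH19 at 27.7% and 20.6%, the endothelial PCDH12 at 50.7% and 38.9%, and PCDH15, a protein of the hair cells of the inner ear, at 53.5% and 38.0%. PCDH15 held 13 CpG sites at each end, and its lower coordinate was taken.

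The promoters of genes known to act on the cluster were mostly low too. Of 14 such genes, 11 (78.6%) were under 20% in both samples, against the same 51.1%, with medians of 2.29% and 3.47%. CTCF was at 0.467% and 0.933%, and the cohesin subunit RAD21 at 0.573% and 1.18%. The DNA methyltransferase DNMT3A was intermediate at 23.6% and 33.8%. DNMT1 was at 4.79% and 23.3%, and DNMT3B at 3.26% and 14.3%. By Fisher's exact test 6 of the 14 differed between samples (42.9%, against 63.8% of all promoters). Against the genome-wide odds ratio 10 of the 14 differed, as did 60.7% of all promoters. Where in each promoter the calls fell was not compared. STAG2, a cohesin subunit on X, was at 30.9% and 19.4%.

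The tissue label could be checked only through promoters, since no RNA was measured. Of 7 matched bone genes 3, SP7, COL1A1 and COL1A2, were under 20% in both samples (42.9%, against 51.1% of all promoters), whereas BGLAP, the gene for osteocalcin, was at 87.3% and 56.5% and RUNX2 at 87.0% and 60%. ALPL was at 72.9% and 54.1% and SPP1 at 46.0% and 49.2%. IBSP was not matched. Of 5 markers of blood cells, 4 were intermediate in both samples (against 10.7% of all promoters), from 22.2 to 44.2% in Bone_1 and from 23.7 to 42.1% in Bone_2, and the T cell gene CD3E was at 85.8% and 69.0%. Of 5 neuronal markers, 4 were under 20% in both samples, again against 51.1%. Strand was not known, so each promoter was placed at the gene end with more CpG sites. The lower and higher ends were close in BGLAP (39 and 49 sites), ALPL (42 and 38), CD79A (34 and 38) and CD3E (27 and 24), among others. RUNX2 had 10 and 15. Their values may thus belong to the far end of the gene. The share of each cell type in the samples was not measured, and its part in the intermediate levels of the protocadherins was not tested.

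Bone_2 was lower than Bone_1 in 470 of the 521 protocadherin windows, with a median difference of 13.3 points, against 16.9 over all windows. By Fisher's exact test with Benjamini-Hochberg adjustment over all 2189146 windows, 306 (58.7%) differed, against 65.8% of all windows, and 295 of these were lower in Bone_2, or 56.6% of the windows tested against 64.8%. The test compares 2 libraries with no replicate behind either, and calls of 1 read are not independent. Against the genome-wide odds ratio of 1.84, 99 windows (19.002%) differed, near the 20.5% of all windows. In 66 of these 99 (12.7% of the windows tested, against 3.82% of all windows) Bone_2 was relatively higher, that is, the gap to Bone_1 was smaller than the genome-wide gap or reversed.

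Among the 86 CpG-dense windows the samples kept much the same order, with a Pearson's r of 0.85 and a Spearman's rho of 0.83 over windows that share their libraries. In other autosomal CpG-dense windows, which span a wider range of levels, Pearson's r was 0.97. Bone_2 was lower in 80 of the 86 (93.0%), against 73.8% of the other autosomal ones, with a median difference of 8.30 points against 6.36. The order of these differences depended on CpG density. With 40 to 59 sites the protocadherin median was 7.57 points, against 11.8 in the other autosomal windows. With 60 or more sites it was 8.77 points against 0.313, where the other autosomal windows had a median level of only 3.99% in Bone_1. Of the 86, 64 differed by Fisher's exact test (74.4%, against 64.9% of all CpG-dense windows) and 35 against the genome-wide odds ratio (40.7%, against 47.2%), with Bone_2 relatively higher in 32 (37.2%, against 22.1%). Intermediate windows fell by a median of 8.45 points from Bone_1 to Bone_2 in the protocadherins, 4.14 elsewhere on the autosomes and 5.27 on X. Bone_2 had 87 to 915 calls in a CpG-dense window and Bone_1 had 176 to 5941, so the level of a window is less certain in Bone_2.

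**Figure D5:**
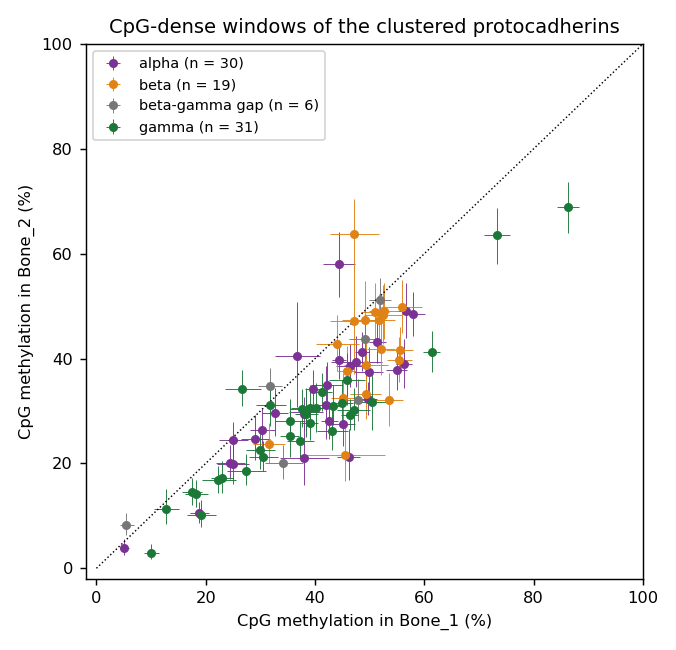
Methylation level (%) of the 86 CpG-dense protocadherin windows in Bone_2 (vertical axis) against Bone_1 (horizontal axis), coloured by group, with 95% Wilson intervals and a dotted line of equal levels. Of the windows, 80 lie below the line, and the beta windows (orange) sit closest together.

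By Fisher's exact test 11 of the 521 windows (2.11%) were higher in Bone_2, against 0.977% of all windows. Of these, 4 were CpG-dense, or 4.65% of the 86, against 10.4% of all CpG-dense windows. Among those, the widest gap in that exact test was the beta window chr7:52227001-52228000 given above (16.6 points, adjusted p = 0.000511), followed by chr7:52054001-52055000 in the alpha group (13.6 points, adjusted p = 0.000525). The window at the higher coordinate of TAF7, where its promoter was placed, and a gamma window were the others. The TAF7 window, chr7:52400001-52401000, was at 5.41% and 8.24%, and the gamma window, chr7:52514001-52515000, at 26.7% and 34.3%. Of the 7 member promoters, 4 differed by Fisher's exact test (57.1%, against 63.8% of all promoters), with PCDHA13, PCDHB11 and PCDHGA8 lower in Bone_2 and PCDHGC3 higher. The direction of PCDHGC3 held only with the outer promoter: within 500 bp of its start it was 0.532% and 0.347%, and the unweighted mean over promoter sites with at least 5 calls in both samples was 0.516% and 0.280%. Against the genome-wide odds ratio 4 differed (57.1%, against 60.7%), namely PCDHB1, PCDHGA2, PCDHGB4 and PCDHGC3, each relatively higher in Bone_2. Those shares are near the background, and no promoter differed by as much as 20 points.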

How the data were processed

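CpG methylation of the 2 bone samples was deposited as counts. After trimming, alignment by Bismark and removal of duplicate reads, the authors extracted the methylated and unmethylated calls of every CpG cytosine on each strand, without normalization. The submitters' processing notes name FastQC 0.11.5, Trim Galore 0.4.5, Bowtie2, Bismark 0.19.0 and the ARS-UCD1.2 assembly, while the paper's methods name another assembly and other versions. Gene ends of ARS-UCD2.0 met the counts at no shift: on chromosome 7, the mean number of CpG sites within 150 bp of the richer end of 1265 genes was 19.9, against 12.2 and 12.4 when shifted by 500 bp either way. No gene coordinates are printed.

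Calls were 582241763 in Bone_1 and 440334436 in Bone_2. Strands were merged into CpG sites and summed over 1000 bp windows and over promoters with Python 3.11.15, numpy 2.4.6, pandas 2.3.3 and scipy 1.17.1, with at least 20 calls in each sample. The libraries were compared by two-sided Fisher's exact tests with Benjamini-Hochberg adjustment (threshold 0.05) over all windows or promoters, and by the exact test against the genome-wide odds ratio. On simulated data for 20000 windows of chromosome 7, the first test recovered 76.5% of changes of 30 points and 97.5% of 50 points, with 1 and 6 unchanged windows called. The simulation drew independent calls and changed 200 windows. In the data, calls of 1 read are not independent and 65.8% of windows differed. The rate of false calls in these data can thus not be read from it. A count of 0 was given the limit of 3 calls.

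The members and lists were chosen with earlier results of these data known. Within each group, the members with the lowest and highest promoter, the largest difference, C-type members, other protein-coding genes of the span and the nearest on each side were named, those without a gene name by their range. Motifs, promoter and protein sequences were not analysed here.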

Additional observations from a re-analysis of the deposited data

How the results depend on the processing

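The level of the whole cluster (42.5%) stayed within 40.5 to 44.8% with 50 calls per window, unweighted sites, or either strand alone. It was 38.2 to 46.7% with either sample left out. Leaving out the deepest sites removed 0 sites of the span, so that setting could not change this level. The median member promoter (24.1%) was 21.5 to 25.7% with either sample left out, and 9.10% in the interval from 250 bp before to 50 bp after the start, where 2 members had too few calls (the same 5 members were at 23.6% in the longer interval). CpG-dense windows under 20% (11.6% ± 3.29 of the protocadherin windows, SD, n = 2) were 9.30 to 14.0% with either sample left out and 7.61% with at least 60 CpG sites. The share of CpG-dense windows at 20 to 60% in both samples (81.4%) was not a planned measure. Both this range and its alternatives were chosen after seeing the data. The share was 74.4% with at least 30 CpG sites (other autosomal windows 7.66%), 87.0% with at least 60 (4.70%) and 94.2% for a range of 10 to 70% (15.8%). In single samples it was 87.2% in Bone_1 (other autosomal windows 8.76%) and 82.6% in Bone_2 (19.5%).

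Of the windows, 306 differed between samples, 99 against the genome-wide odds ratio, and 123 with a difference of at least 20 points. Of the member promoters 4 differed, and 0 did with a difference of at least 20 points. No other alternative moved a value beyond the spread between samples or a count by over 1.5 times. The minimum of 50 calls could not change the levels of member promoters or the shares of CpG-dense protocadherin windows. Each of these promoters and windows had more calls than that in both samples. No paired analysis was possible because there is only 1 group of samples. Bone_2 had 6.73 calls per site in CpG-dense windows, which limits single sites there, and Bone_1 left 169 windows under the minimum.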

Other observations

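Levels in the intermediate protocadherin windows differed with the bases beside the CpG, read on the forward strand, in a comparison chosen after the values were seen. Among the 16 combinations, sites within ACGT were the lowest in both samples, at 29.5% in Bone_1 and 20.3% in Bone_2 over 53 sites read at least 10 times in both samples. Sites within TCGA, which like ACGT reads the same on both strands, were at 51.6% and 34.1% over 42 sites. Sites within CCGA were at 51.5% and 40.5% over 69 sites, and those within TCGG, the same context on the other strand, at 43.9% and 31.8% over 49. In intermediate X-linked windows ACGT was also the lowest, at 32.1% and 24.7% over 209 sites, whereas in the other intermediate autosomal windows it was at 36.2% and 32.7% over 1705 sites, ranks 15 and 4 from the bottom. Sites share libraries and windows, so these are values without a test.

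By strand, the cluster was at 44.0% in Bone_1 and 36.9% in Bone_2 on the forward strand, and at 50.04% and 39.6% on the reverse strand, which held 44.6% and 48.6% of the calls.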
